A study of Mus musculus with 12 samples.

Results

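The autophagy genes described here are Ulk1, Becn1, Atg5, Atg7, Map1lc3a, Map1lc3b, Gabarap, Gabarapl1, Gabarapl2 and Sqstm1. They were chosen by symbol as the core of the pathway, with no measured value in the rule, and 10 of 10 were found among the 38739 symbols of the expression table. All 10 passed the filter on low values, which left 11887 genes for testing. RNA was sequenced from mouse bone marrow-derived macrophages (BMDMs), which are macrophages grown in culture from marrow cells, in 12 libraries, with 3 in each of 4 groups. The groups were wild-type (WT) untreated (UT), cGAS-/- UT, WT LPS and cGAS-/- LPS. The WT mice were purchased C57BL/6J animals, and the cGAS-/- mice, on the same background, came from the colony of another laboratory, so genotype and source of the mice cannot be told apart. In cGAS-/- mice every cell lacks cGAS, the cytosolic DNA sensor that signals through STING. UT cells received medium alone. Treated cells received lipopolysaccharide (LPS) of E. coli 026:B6, at 150 ng/mL for 24 h by the study's methods and at 100 ng/mL for 1 h by the sample labels. The methods give male mice at 8 weeks of age.

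Autophagy delivers cytoplasm, damaged organelles and microbes to the lysosome. The kinase Ulk1 starts it, a lipid kinase complex that contains Becn1 marks the site where a membrane forms, and a ubiquitin-like conjugation system that includes Atg7 and Atg5 attaches the small proteins of the LC3 and GABARAP families to that membrane. Sqstm1 (p62) binds ubiquitinated cargo on one side and LC3 on the other and is itself degraded with the cargo. In macrophages the pathway takes part in the clearance of bacteria and of damaged mitochondria, and STING can induce the lipidation of LC3. Transcript levels such as those below show the supply of these components and not autophagic flux.

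In GRCm39 the 10 genes lie on 6 chromosomes. Becn1, Gabarap and Sqstm1 are on chromosome 11, Atg7 and Gabarapl1 on chromosome 6, and Map1lc3b and Gabarapl2 on chromosome 8. Ulk1 lies on chromosome 5 (110931496 to 110957995), Atg5 on chromosome 10 (44142076 to 44240308) and Map1lc3a on chromosome 2 (155118217 to 155119998). Gabarapl1 occupies 129509725 to 129520544 and Atg7 occupies 114620044 to 114837576 of chromosome 6. Each of the 5 LC3 and GABARAP genes has 4 exons in its canonical transcript, against 28 for Ulk1 and 19 for Atg7.

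The 150 bases before the start site are shown for 3 members, to set the gene with the largest LPS difference (Gabarapl1) beside the gene whose level was most alike in all groups (Sqstm1) and to show the E-box of Atg5. They are RefSeq promoters of build GRCm38.p6, given 5′ to 3′ on the strand of the gene, and capitals mark CACGTG, the E-box core bound by TFEB and related factors. Gabarapl1 is at chr6:129533042-129533191 (plus strand), Sqstm1 at chr11:50210821-50210970 (minus strand) and Atg5 at chr10:44268189-44268338 (plus strand).
Gabarapl1: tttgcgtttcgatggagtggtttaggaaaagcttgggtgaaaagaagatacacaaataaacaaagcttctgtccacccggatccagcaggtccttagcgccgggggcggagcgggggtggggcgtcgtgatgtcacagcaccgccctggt
Sqstm1: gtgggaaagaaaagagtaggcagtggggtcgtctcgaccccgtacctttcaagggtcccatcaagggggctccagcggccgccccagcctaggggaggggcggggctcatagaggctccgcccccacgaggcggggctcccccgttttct
Atg5: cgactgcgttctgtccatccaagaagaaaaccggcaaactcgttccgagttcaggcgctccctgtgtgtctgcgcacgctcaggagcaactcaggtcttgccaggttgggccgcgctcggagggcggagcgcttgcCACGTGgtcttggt

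RefSeq promoters, from 250 bases before to 50 bases after the start, were matched for 8 of the 10 members, without Map1lc3a and Becn1. Both strands were searched for CACGTG, for TGACNNNGC (the core of the antioxidant response element) and for GTAAACA (a FOXO motif). CACGTG was found in Atg5, with its first base at -14 from the start site, and in the window listed for Atg7. By exact match to GRCm39, the start used for Atg7 lay 27999 bases inside the gene, counted from the start of its canonical transcript, and 9066 bases from the nearest annotated transcript start, so that window is not the promoter of the canonical transcript and is not shown. The start used for Sqstm1 lay 1238 bases after the canonical start and 18 bases from another annotated start, and those of the other 6 lay 9 to 308 bases after the canonical start. TGACNNNGC was found in Map1lc3b and GTAAACA in none of the 8. Of 32851 promoters of this length, 7.15% held CACGTG, 12.4% held TGACNNNGC and 3.65% held GTAAACA. The GC content of the 8 windows ran from 42.7% (Atg7) to 68% (Ulk1 and Map1lc3b), with 46.3% in Gabarapl1 and 63.3% in Sqstm1, beside a median of 52.7% over all promoters. A match is a run of letters and not a measured binding site.

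The values are TPM, transcript abundances scaled to the total of a library, taken as averaged over the transcripts listed for a symbol, so levels are compared between libraries for 1 gene and not between genes. The columns summed to 447189 to 503156 in 11 libraries and to 709802 in WT LPS replicate 3, where protein-coding genes held 18.5% of the sum against 39.7% to 54.4% elsewhere. Symbols above 0 numbered 12261 in that library and 12787 in WT LPS replicate 1, against 15378 to 17573 in the other 10. Results that turn on this library are also given without it. Cgas lay at 1.19 to 3.25 TPM in the 6 WT libraries and at 0.0703 to 0.291 TPM in the 6 cGAS-/- libraries. Of 9 macrophage markers, 6 were analysed, all above 0 in every library, and their summed level was 17173 to 17914 TPM in WT UT, 20439 to 22313 in cGAS-/- UT, 16689 to 26764 in WT LPS and 33621 to 34082 in cGAS-/- LPS. Lyz2 alone made up 92.2% to 98.6% of that sum, and the other markers did not move together. Mrc1 lay at 73.4 to 85.2 TPM in WT UT, 23.5 to 25.6 in cGAS-/- UT, 3.85 to 10.9 in WT LPS and 0.857 to 1.095 in cGAS-/- LPS, and Mertk at 16.6 to 22.4 TPM in the UT libraries and 3.10 to 16.8 TPM in the LPS libraries. Cd68 lay at 973 to 1046 TPM in the UT libraries and at 153 to 506 TPM in the LPS libraries. Fcgr1 lay at 61.6 to 73.4 TPM in the UT libraries and at 176 to 720.35 TPM in the LPS libraries. Itgam lay at 43.3 to 47.3 TPM in the UT libraries, 37.1 to 157 TPM in WT LPS and 141 to 144 TPM in cGAS-/- LPS. The sum of 5 B cell markers was 65.6 to 98.0 TPM in WT UT, 4.32 to 11.1 in cGAS-/- UT, 30.1 to 39.2 in WT LPS and 2.65 to 7.59 in cGAS-/- LPS, and Igkc made up 67.4% to 99% of it. The extraction step in the labels names neutrophils. The sum of 8 neutrophil and precursor markers was 153 to 224 TPM in WT UT, 71.6 to 141 in cGAS-/- UT, 67.9 to 382 in WT LPS and 71.4 to 90.2 in cGAS-/- LPS. Within it Ngp was at 24.1 to 32.3 TPM in WT UT and 0.657 to 3.13 TPM in cGAS-/- UT, whereas Csf3r was at 11.6 to 14.6 and 14.8 to 19.3 TPM. The sum of 6 dendritic cell markers was 7.32 to 7.72 TPM in WT UT, 4.385 to 6.33 in cGAS-/- UT, 2.25 to 2.66 in WT LPS and 1.59 to 2.77 in cGAS-/- LPS. The red cell genes Hba-a1 and Hbb-bs were at most at 5.82 and 12.4 TPM, both in WT LPS replicate 1. All 6 T and NK cell markers lay under 1 TPM in every library. The part of these cell types in the results below was not tested, and fewer cells of a type cannot be told apart from less RNA per cell. Nothing says that the libraries came from separate mice, and the study calls its replicates technical, so p-values measure the spread between these libraries only.

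With LPS, part of the set was lower in WT macrophages. Gabarapl1, Atg7, Ulk1, Map1lc3b and Map1lc3a fell, which is 5 of 10, and none rose (limma over all 12 libraries, Benjamini-Hochberg adjusted p under 0.05 over 11887 genes). Over all genes 27.6% were called in this comparison and 23.3% were called lower. The median log2 fold change of the 10 members was -0.66, beside -0.46 for all genes tested, and without WT LPS replicate 3 these were -0.42 and -0.29. In cGAS-/- macrophages only Map1lc3a passed the same test, lower, where 13.8% of all genes were called and 9.06% were called lower, and the median was -0.46 for the members and -0.20 for all genes. The difference between the genotypes in the LPS response passed the test for 0 of 10 members (0 at an unadjusted p under 0.05, limma), with 0.900% of all genes called.

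The number called in cGAS-/- cells turned on which libraries shared the estimate of the spread. Fitted on the 6 cGAS-/- libraries alone, 7 of 10 members fell with LPS (limma), in a fit that called 32.0% of all genes lower. Without WT LPS replicate 3, 5 of 10 fell in cGAS-/- cells, where 21.6% of all genes fell. In WT cells 5 of 10 also fell without it, where 26.5% of all genes fell, with Gabarapl2 in place of Ulk1. Fitted on the 6 WT libraries alone, 0 of 10 passed (2 at an unadjusted p under 0.05, limma), with 4.62% of all genes called lower. In the fits that left out 1 library each, 1 to 6 members were called in WT and 1 to 5 in cGAS-/- cells, while over all genes the share called ran from 16.5% to 48.7% and from 8.58% to 30.8%. Without WT LPS replicate 1, 5 were called in WT and 2 in cGAS-/- cells, beside 28.1% and 15.9% of all genes. Gabarapl1 was called in WT in 12 of these 12 fits, and Atg7 in 11, missing without WT UT replicate 1. Leaving out WT UT replicate 2 or 3, or any cGAS-/- library, left these 2 as the WT calls, with Map1lc3a besides when cGAS-/- UT replicate 1 was left out. Map1lc3a was called in cGAS-/- cells in 12 of the 12 fits.

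**Figure D1:**
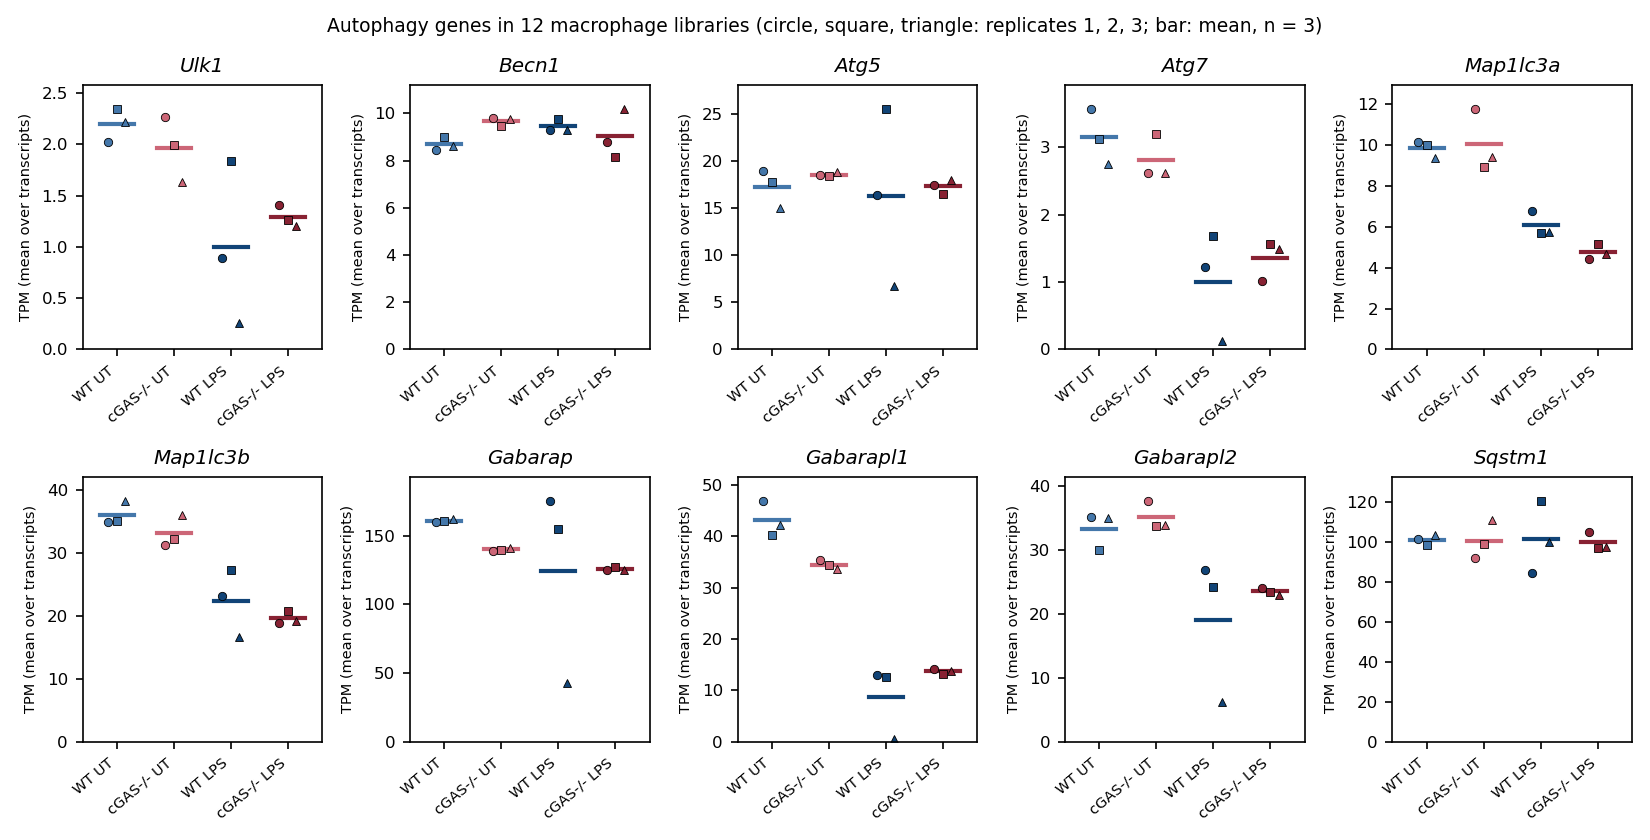
Level of the 10 autophagy genes in TPM (mean over transcripts) in each of the 12 libraries, with a bar for the mean of 3 libraries in each of the 4 groups. Gabarapl1 lay between 33.5 and 46.9 TPM in the 6 UT libraries and at 14.2 TPM or below in the 6 LPS libraries, whereas Sqstm1 averaged between 99.8 and 101.8 TPM in every group, and the triangle of WT LPS (replicate 3) lay lowest of the 12 for Ulk1, Atg5, Atg7, Map1lc3b, Gabarap, Gabarapl1 and Gabarapl2.

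Ulk1 is the kinase that initiates autophagosome formation and is controlled by mTORC1 and AMPK. Its levels in WT UT were 2.02, 2.35 and 2.22 TPM, and with LPS 0.892, 1.835 and 0.262 TPM. The cGAS-/- levels were 2.26, 1.998 and 1.63 TPM in UT and 1.41, 1.26 and 1.20 TPM with LPS. In both genotypes all LPS libraries lay below all UT libraries, and WT LPS replicate 3 was the lowest. The share of all genes without overlap between LPS and UT libraries was not counted. Between genotypes in UT cells that share was 30.5%. Such separation, here and for the members below, is therefore only a description. In WT the mean with LPS was 45.3% of that in UT, and the decrease of -0.76 on the log2 scale (standard error, SE, 0.253, limma adjusted p = 0.0462) became -0.46 without replicate 3 (adjusted p = 0.07). The cGAS-/- mean with LPS was 65.75% of UT and the log2 difference -0.37 (SE 0.253, limma adjusted p = 0.428), or 0.0371 as adjusted p from the 6 cGAS-/- libraries alone.

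Becn1 encodes beclin 1, the regulatory subunit of the class III phosphatidylinositol 3-kinase complex. Its group means were 8.685 ± 0.290 TPM (SD, n = 3) in WT UT, 9.67 ± 0.193 in cGAS-/- UT, 9.45 ± 0.254 in WT LPS and 9.05 ± 1.055 in cGAS-/- LPS. In WT LPS replicate 3 it stood at 9.29 TPM, close to the 9.31 and 9.74 TPM of the other WT LPS libraries. Its LPS log2 fold change was 0.11 in WT (95% interval -0.29 to 0.51, limma) and -0.09 in cGAS-/- (-0.49 to 0.31). With TMM factors, which scale each library by a trimmed mean of ratios, Becn1 was called higher in WT LPS by 0.80 (limma adjusted p = 0.0432). These factors multiplied WT LPS replicate 3 by 2.317 and the other WT LPS libraries by 1.329 and 0.955. This fit was not repeated without replicate 3, so the part of that library in the call was not tested. Of its canonical transcript 49.6% overlaps Cntd1 on the opposite strand, and whether the quantification used the strand is not stated, so its level is uncertain.

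Atg7 is the E1-like enzyme that activates the conjugation system, and Atg5 is the partner that Atg12 is conjugated to. Atg7 lay at 3.575, 3.13 and 2.75 TPM in WT UT and at 1.22, 1.68 and 0.119 TPM in WT LPS. Levels in cGAS-/- cells were 2.62, 3.20 and 2.62 TPM in UT and 1.01, 1.56 and 1.48 TPM with LPS. Every LPS library was below every UT library in both genotypes. The mean with LPS was 31.9% of UT in WT (46.0% without replicate 3) and 48.0% of UT in cGAS-/- cells. Atg7 fell by 1.14 on the log2 scale in WT (SE 0.286, limma adjusted p = 0.0144) and by 0.76 without replicate 3 (adjusted p = 0.00558). The change in cGAS-/- cells was -0.70 (SE 0.286, limma adjusted p = 0.146), with an adjusted p of 0.00463 without WT LPS replicate 3.

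Atg5 stood apart from Atg7. It averaged 17.2 ± 2.04 TPM in WT UT, 18.6 ± 0.210 in cGAS-/- UT and 17.35 ± 0.756 in cGAS-/- LPS (SD, n = 3). The 3 WT LPS libraries spread from 6.74 TPM (replicate 3) through 16.4 to 25.6 TPM, so they held both the lowest and the highest value of the 12. The log2 fold change with LPS was -0.25 in WT (95% interval -1.06 to 0.56, limma), 0.25 without replicate 3, 0.45 with TMM factors and 0.18 with quantile normalization. For cGAS-/- cells it was -0.09 (-0.90 to 0.72), or 0.21 with TMM factors. There the LPS libraries (16.55 to 18.05 TPM) lay below all UT libraries (18.4 to 18.8 TPM), as they did for Atg7.

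Map1lc3a and Map1lc3b encode LC3A and LC3B, the ubiquitin-like proteins that are attached to phosphatidylethanolamine in the growing membrane. LC3B is the usual marker of autophagosomes. Map1lc3a lay at 10.1, 10.0 and 9.40 TPM in WT UT and at 6.79, 5.71 and 5.74 TPM in WT LPS. The cGAS-/- libraries gave 11.8, 8.94 and 9.44 TPM in UT and 4.42, 5.185 and 4.65 TPM with LPS. The groups did not overlap in either genotype, WT LPS replicate 3 lay beside replicate 2 here, and all 3 cGAS-/- LPS libraries lay below all 3 WT LPS libraries. Map1lc3a was the member called with LPS in both genotypes. It fell by 0.62 in WT (SE 0.190, limma adjusted p = 0.0336) and by 0.94 in cGAS-/- cells (SE 0.190, adjusted p = 0.00655). With TMM factors these became 0.06 and -0.65, neither of which passed the test (adjusted p = 0.887 and 0.133).

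Map1lc3b was at 35.0, 35.1 and 38.3 TPM in WT UT and at 23.2, 27.35 and 16.6 TPM in WT LPS. In cGAS-/- UT it was at 31.3, 32.2 and 36.1 TPM, and in cGAS-/- LPS at 18.9, 20.8 and 19.1 TPM. The UT and LPS ranges did not overlap in either genotype. Map1lc3b fell by 0.70 in WT (SE 0.228, limma adjusted p = 0.0429), by 0.50 without replicate 3 (adjusted p = 0.00754), and stood at 0.04 with TMM factors. Its cGAS-/- log2 fold change of -0.73 just missed the threshold (limma adjusted p = 0.0579) and passed it without WT LPS replicate 3 (adjusted p = 0.000421). Of its transcript, 31.8% matches other genes, chiefly the pseudogene Gm12727 at 98.6% identity, so reads could have been split between them.

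Gabarapl1, a GABARAP family member used both as a membrane anchor and as a docking site for cargo receptors, had the largest LPS difference of the set. It was at 46.9, 40.3 and 42.15 TPM in WT UT and at 13.05, 12.5 and 0.491 TPM in WT LPS. The cGAS-/- values were 35.3, 34.45 and 33.5 TPM in UT and 14.2, 13.25 and 13.75 TPM with LPS. The UT and LPS libraries were far apart in both genotypes, and replicate 3 of WT LPS lay more than an order of magnitude below the other LPS libraries. The mean with LPS was 20.2% of UT in WT, 29.7% without replicate 3, and 39.9% in cGAS-/- cells.

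Gabarapl1 fell by 2.74 in WT (SE 0.671, limma adjusted p = 0.0128) and was the only member to pass the threshold of the study, a log2 fold change beyond 2 with an adjusted p under 0.05, which 4.32% of all genes passed. Without replicate 3 it fell by 1.67 (SE 0.0988, adjusted p = 1.58e-06), short of that fold. With TMM factors the log2 fold change in WT was -2.23 (adjusted p = 0.0282). The log2 fold change in cGAS-/- cells was -1.27, with an adjusted p of 0.279 in the fit of 12 libraries (SE 0.671, limma), 3.53e-06 without WT LPS replicate 3 and 9.29e-06 from the 6 cGAS-/- libraries alone. The size was the same in these 3 fits and the standard error was not. Its transcript overlaps the antisense gene 1700101I11Rik over 26.7% of its length.

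Gabarapl2, also known for a part in transport within the Golgi, and Gabarap, named for its binding to a GABA receptor, complete the family. Gabarapl2 lay at 35.2, 29.9 and 34.9 TPM in WT UT, 26.85, 24.1 and 6.25 TPM in WT LPS, 37.7, 33.75 and 33.9 TPM in cGAS-/- UT and 24.1, 23.4 and 23.0 TPM in cGAS-/- LPS. All LPS libraries were below all UT libraries of the same genotype. The log2 fold change was -0.99 in WT (limma adjusted p = 0.0983) and -0.56 in cGAS-/- cells (adjusted p = 0.48). Without WT LPS replicate 3 they were -0.37 and -0.56, and both passed the test (adjusted p = 0.0261 and 0.00184). Of its transcript 20.8% matches other genes, chiefly the pseudogene Gm5829.

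Gabarap gave another pattern in WT cells. It lay at 159.9, 160.5 and 162 TPM in WT UT and at 175.3, 154.8 and 42.5 TPM in WT LPS. The low value was that of replicate 3 and the other 2 lay on either side of the UT range. In cGAS-/- cells it lay at 138.9, 139.6 and 141.2 TPM in UT and at 125.1, 127.0 and 125.1 TPM with LPS, in narrow ranges that did not overlap. Its LPS log2 fold change was -0.61 in WT (95% interval -1.55 to 0.34, limma), 0.03 without replicate 3 and 0.14 with TMM factors. For cGAS-/- cells it was -0.15 (SE 0.430, limma adjusted p = 0.888), with an adjusted p of 0.00682 from the 6 cGAS-/- libraries alone, and 0.17 with TMM factors.

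Sqstm1, the cargo receptor p62 and a target of the stress factor Nrf2, had nearly the same mean in every group. It was at 101.6, 98.55 and 103.6 TPM in WT UT, 92.0, 99.2 and 110.9 TPM in cGAS-/- UT, 84.7, 120.7 and 99.8 TPM in WT LPS and 104.9, 97.0 and 97.6 TPM in cGAS-/- LPS. All groups overlapped, and WT LPS replicate 3 lay within the range of the other libraries. The log2 fold change with LPS was -0.01 in WT (95% interval -0.47 to 0.46, limma) and -0.01 in cGAS-/- cells (-0.48 to 0.46). Relative to the median of all genes these were 0.45 and 0.19, and the WT value was 0.29 without replicate 3. With TMM factors, which multiplied that library by 2.317, the log2 fold changes were 0.74 (limma adjusted p = 0.0647) and 0.31 (adjusted p = 0.58). Of its transcript 28.8% overlaps Mrnip and Mgat4b on the opposite strand.

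**Figure D2:**
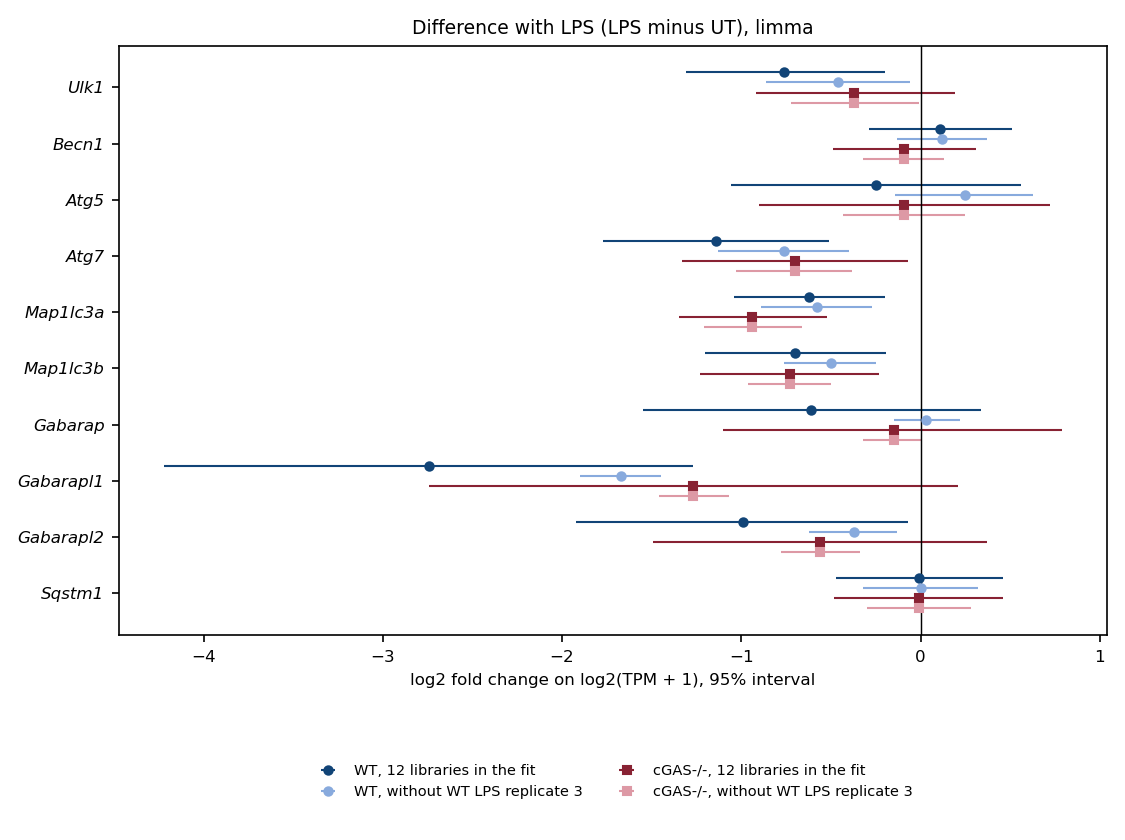
Difference with LPS of the 10 autophagy genes in WT (circles) and cGAS-/- macrophages (squares), as log2 fold change on log2(TPM + 1) with 95% intervals from limma, with 12 libraries (dark) and without WT LPS replicate 3 (light). The estimates for cGAS-/- cells are the same in both fits and their intervals are shorter without that library, while the estimate for Gabarapl1 in WT moved from -2.74 to -1.67.

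The sign for several members depended on how the libraries were scaled. TMM factors multiplied WT LPS replicate 3 by 2.317 and the other libraries by 0.833 to 1.329. No fit with TMM factors left that library out, so its part in these signs was not tested. Over all genes tested the median LPS difference was -0.46 in WT and -0.20 in cGAS-/- cells on the deposited scale, and -0.05 and 0.00 with TMM factors. The median of the 10 members, -0.66 and -0.46 on the deposited scale, was then 0.05 and -0.21. With these factors 3 of 10 members were called in WT (Gabarapl1 and Atg7 lower, Becn1 higher, limma), where 19.6% of all genes were called, 958 higher and 1377 lower against 512 higher and 2774 lower on the deposited scale. In cGAS-/- cells 0 of 10 were then called (2 at an unadjusted p under 0.05, limma), with 837 genes higher and 789 lower against 566 and 1077. Relative to the median of all genes, the deposited scale gave Gabarapl1 -2.28 in WT and -1.07 in cGAS-/- cells, and Atg7 -0.68 and -0.50. Without WT LPS replicate 3 the WT values were -1.38 for Gabarapl1 and -0.47 for Atg7.

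Ratios of 2 members within a library do not depend on how the libraries are scaled. The ratio of Gabarapl1 to Gabarap was 0.293, 0.251 and 0.260 in WT UT, 0.254, 0.247 and 0.238 in cGAS-/- UT, 0.0744, 0.08105 and 0.0115 in WT LPS and 0.113, 0.104 and 0.110 in cGAS-/- LPS. All 6 LPS libraries were below all 6 UT libraries, and all 3 WT LPS libraries were below all 3 cGAS-/- LPS libraries. The ratio of Map1lc3b to Sqstm1 was 0.357 ± 0.0126 in WT UT, 0.330 ± 0.00905 in cGAS-/- UT, 0.222 ± 0.0538 in WT LPS and 0.197 ± 0.0171 in cGAS-/- LPS (SD, n = 3). The ratio of Atg7 to Atg5 was 0.183 ± 0.00633, 0.152 ± 0.0193, 0.0524 ± 0.0305 and 0.0782 ± 0.0187 in the same order. These ratios show unequal change between the genes of a pair, without saying which of the pair changed.

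**Figure D3:**
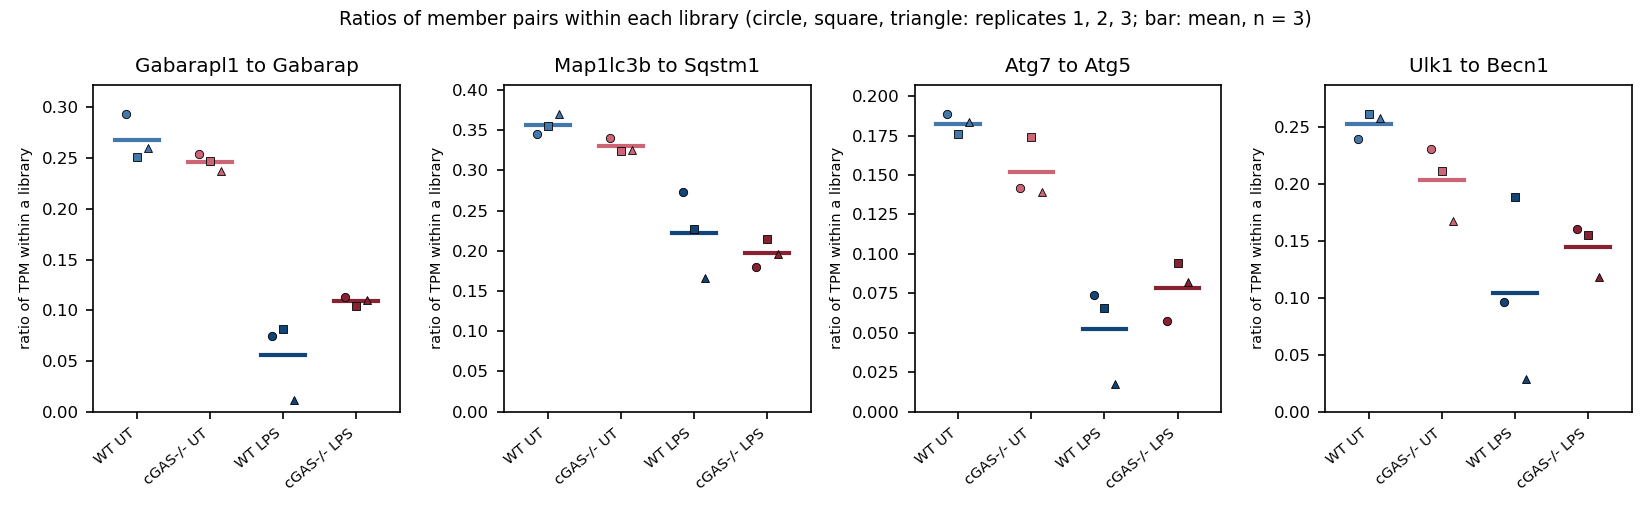
Ratio of the TPM values of 4 pairs of members within each library, with a bar for the mean of 3 libraries per group. The 6 LPS libraries lie below the 6 UT libraries for Gabarapl1 to Gabarap (0.113 at most against 0.238 at least), Map1lc3b to Sqstm1 (0.273 against 0.3245) and Atg7 to Atg5 (0.0945 against 0.139), while for Ulk1 to Becn1 a WT LPS library (0.1885) lies above a cGAS-/- UT library (0.168).

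Between genotypes, 0 of 10 members passed the test in UT macrophages (0 at an unadjusted p under 0.05, limma), where 1.83% of all genes were called. With LPS, 0 of 10 passed as well (0 at an unadjusted p under 0.05), where 2.36% of all genes were called. The median log2 fold change, cGAS-/- minus WT, was -0.06 in UT and 0.26 with LPS for the members and -0.04 and 0.20 for all genes. With LPS these medians became -0.09 and 0.04 without WT LPS replicate 3, and -0.12 and 0.03 with TMM factors. In UT cells, 3 of 10 members did not overlap between genotypes, beside 30.5% of all genes tested: Gabarapl1 and Gabarap lay lower in all 3 cGAS-/- libraries, and Becn1 lay higher.

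The UT means in cGAS-/- cells were 79.8% of WT for Gabarapl1, 87.0% for Gabarap and 111% for Becn1. For Gabarapl1 the log2 fold change was -0.31 with a 95% interval of -1.79 to 1.16 in the fit of 12 libraries. Fitted on the 6 UT libraries alone, 2 of 10 members were called, lower in cGAS-/-, where 7.07% of all genes were called lower. These were Gabarap (-0.20, SE 0.0297, limma adjusted p = 0.0138) and Gabarapl1 (-0.31, SE 0.0656, adjusted p = 0.0393). The difference was 0.14 for Becn1, 0.11 for Atg5, 0.07 for Gabarapl2, 0.02 for Map1lc3a, -0.01 for Sqstm1, -0.11 for Ulk1, -0.12 for Atg7 and -0.12 for Map1lc3b, none of which passed the test. The 95% interval for Sqstm1 was -0.48 to 0.45 in the fit of 12 libraries and -0.19 to 0.17 from the 6 UT libraries alone, and for Map1lc3b it was -0.62 to 0.38 and -0.30 to 0.06.

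With LPS, the means in cGAS-/- cells ran from 78.2% (Map1lc3a) to 158% (Gabarapl1) of WT. The value for Gabarapl1 came from WT LPS replicate 3, as its log2 fold change of 1.16 (95% interval -0.31 to 2.64, limma) became 0.09 (-0.13 to 0.32) without that library. Without it, Gabarap was lower in cGAS-/- LPS than in WT LPS, with a log2 fold change of -0.39 (limma adjusted p = 0.0186), which made 1 of 10 members lower where 4.44% of all genes were. The 3 cGAS-/- LPS libraries then lay at 125.1 to 127.0 TPM and the remaining 2 WT libraries at 154.8 and 175.3 TPM. With all 12 libraries the same difference was 0.26, since replicate 3 stood at 42.5 TPM. Without WT LPS replicate 2 instead, Ulk1 was higher in cGAS-/- LPS by 0.57 (limma adjusted p = 0.0463), which made 1 of 10 members higher where 23.9% of all genes were. The sign differed between the fits with and without replicate 3 for Ulk1 (0.28 and -0.02), Atg5 (0.26 and -0.23), Atg7 (0.31 and -0.06) and Gabarapl2 (0.51 and -0.11) as well as for Gabarap. It did not differ for Becn1 (-0.06 and -0.07), Map1lc3a (-0.30 and -0.33), Map1lc3b (-0.15 and -0.34) and Sqstm1 (-0.01 and -0.02), and none of these 8 passed the test in either fit (limma).

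**Figure D4:**
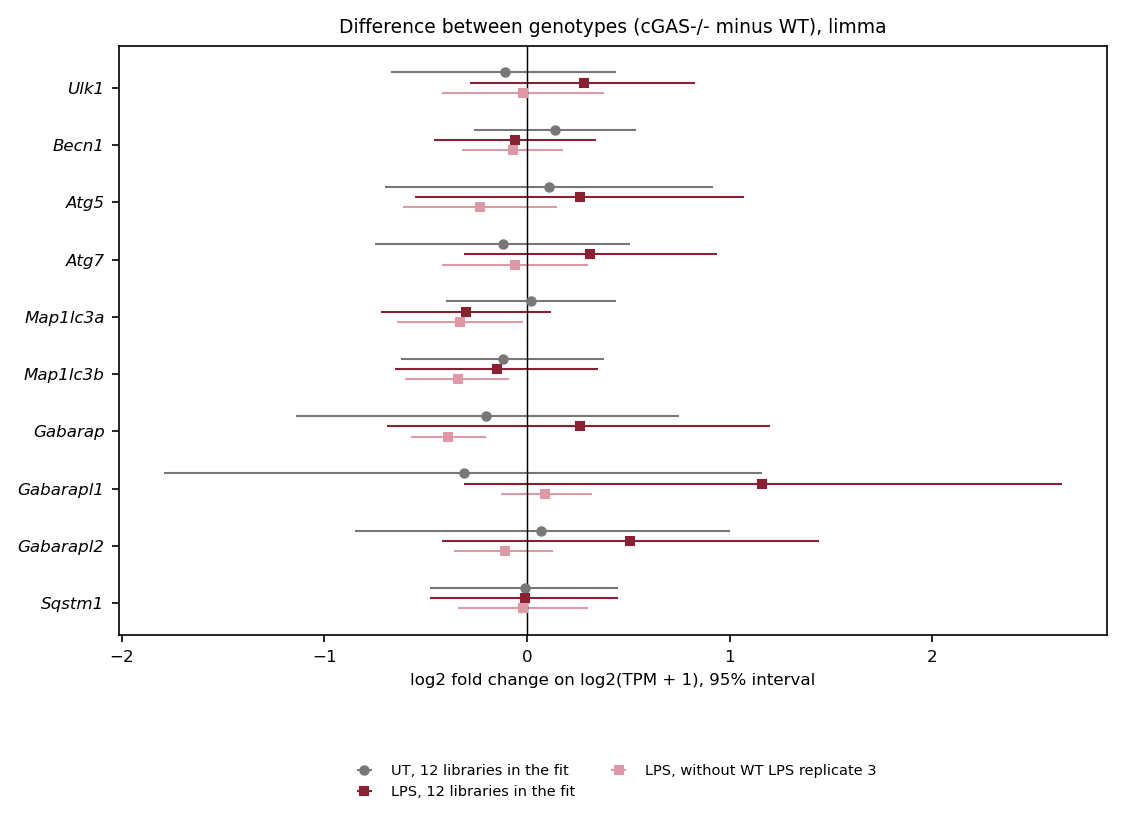
Difference between genotypes (cGAS-/- minus WT) of the 10 autophagy genes in UT cells and with LPS, as log2 fold change on log2(TPM + 1) with 95% intervals from limma, and with LPS also without WT LPS replicate 3. Every interval of the fits with 12 libraries spans 0, and without that library the Gabarap estimate with LPS moved from 0.26 to -0.39.

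In the LPS response, the difference between genotypes was largest for Gabarapl1, at 1.48 on the log2 scale (95% interval -0.61 to 3.57, limma adjusted p = 0.605). Without WT LPS replicate 3 it was 0.41 (0.11 to 0.71, adjusted p = 0.137). It was 0.46 for Gabarap, 0.44 for Gabarapl2, 0.43 for Atg7, 0.39 for Ulk1 and 0.15 for Atg5, and with that library left out -0.19, -0.19, 0.06, 0.10 and -0.34 in the same order. The values below 0 were -0.03 for Map1lc3b, -0.20 for Becn1 and -0.32 for Map1lc3a (-0.22, -0.21 and -0.35 without it), and the interval for Sqstm1 was -0.66 to 0.66.

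The same comparisons were read for 66 further genes of the autophagy pathway, grouped by role, of which 46 were listed and 45 tested. Between genotypes 0 of 45 passed in UT (0 at an unadjusted p under 0.05, limma) and 0 of 45 with LPS (9 at an unadjusted p under 0.05, as were 2229 of all 11887 genes). In the 6 UT libraries alone Tbk1 at 0.28 and Vamp8 at -0.30 passed (limma adjusted p = 0.0469 and 0.0198), in a fit that called 10.4% of all genes. With LPS in WT cells 1 rose and 12 fell, 13 of 45 beside 27.6% of all genes, with a median log2 fold change of -0.48. In cGAS-/- cells 1 rose and 7 fell, 8 of 45 beside 13.8% of all genes, with a median of -0.36. Fitted on the 6 libraries of a genotype alone, 0 rose and 3 fell in WT (Atg16l2, Atg9b and Trp53inp1), where 6.02% of all genes were called. Atg16l2 and Atg9b had passed the filter through their UT levels, given below. In cGAS-/- cells 8 rose and 23 fell in such a fit, where 44.6% of all genes were called.

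Bnip3, a mitophagy receptor, rose by 1.53 in WT (limma adjusted p = 0.00155) and by 1.82 in cGAS-/- cells (adjusted p = 0.000638). It lay at 5.98 to 7.25 TPM in WT UT and 14.01 to 28.1 TPM in WT LPS, and at 6.86 to 7.88 TPM and 26.4 to 30.9 TPM in cGAS-/- cells. Of the Ulk1 kinase complex, 2 of 3 tested genes fell in WT, where 23.3% of all genes fell: Ulk2, a paralog of Ulk1, by 1.47 (adjusted p = 0.00507) and the scaffold Atg13 by 1.09 (adjusted p = 0.00483). The corresponding values in cGAS-/- cells were -0.90 (adjusted p = 0.0736) and -0.60 (adjusted p = 0.108), and both passed the test at the same size without WT LPS replicate 3 (limma adjusted p = 0.00348 and 0.016).

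Among regulators, 5 of 11 fell in WT cells and 3 of 11 in cGAS-/- cells, beside 23.3% and 9.06% of all genes. Foxo3, a transcription factor of autophagy genes, fell by 1.42 and 1.11 (limma adjusted p = 0.00127 and 0.00719), and Trp53inp1, a stress-induced promoter of autophagy, fell by 1.32 and 1.19 (adjusted p = 0.000552 and 0.00133). Trp53inp2, which recruits LC3 and GABARAP proteins, fell by 1.11 in WT (adjusted p = 0.0148) and was at -0.40 in cGAS-/- cells (adjusted p = 0.437). Of the conjugation genes, Atg16l2 fell in both genotypes, by 1.17 and 0.87 (limma adjusted p = 0.000897 and 0.00689). It lay at 1.40 to 1.96 TPM in the UT libraries, 0.00445 to 0.628 TPM in WT LPS and 0.293 to 0.392 TPM in cGAS-/- LPS. It passed the filter through its UT levels, which favours a fall with LPS. Wipi1, a phosphoinositide-binding protein of the early membrane, fell by 1.18 in WT (adjusted p = 0.028). With WT LPS replicate 3 left out it stood at -0.81 and was not called (limma adjusted p = 0.05).

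In cGAS-/- cells the receptor Optn fell by 1.51 (limma adjusted p = 0.0047) and the fusion adaptor Plekhm1 by 1.37 (adjusted p = 0.00519). In WT they were at -0.45 (adjusted p = 0.253) and -0.98 (adjusted p = 0.0204). The interaction for Optn was -1.06 (adjusted p = 0.363). Optn lay at 0.989 and 1.25 TPM in 2 WT LPS libraries and at 3.875 TPM in replicate 3. Without replicate 3 it fell in WT too, by 0.85 (limma adjusted p = 0.00109), and the interaction was -0.66 (adjusted p = 0.0801). Atg9b, which belongs to the membrane-supplying ATG9 group, fell by 1.01 in WT and by 0.94 in cGAS-/- cells (limma adjusted p = 0.00041 and 0.00082). It lay at 0.910 to 1.315 TPM in the UT libraries and at 0 to 0.167 TPM in the LPS libraries. It therefore passed the filter through the UT libraries alone, a selection that favours a fall with LPS. Rptor, a subunit of mTORC1, fell by 1.00 in WT and by 0.86 in cGAS-/- cells (limma adjusted p = 0.0109 and 0.0338).

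When WT LPS replicate 3 was left out, the counts for the 45 genes rose to 4 higher and 16 lower in WT, where 34.7% of all genes were called, and to 7 higher and 17 lower in cGAS-/- cells, where 30.8% were called. Vmp1, which acts in the transfer of lipids to the growing membrane, then had the largest rise in WT, by 1.82 (limma adjusted p = 5.1e-06), and rose by 1.65 in cGAS-/- cells (adjusted p = 3.43e-06). It lay at 11.95 to 14.2 TPM in WT UT and at 43.1, 55.65 and 7.28 TPM in WT LPS, with replicate 3 the last. Between genotypes with LPS, 3 of 45 were called where 8.28% of all genes were: Trp53inp2 at 0.67 and Sesn2 at 0.63 were higher in cGAS-/- cells and Vamp8 at -0.47 was lower (adjusted p = 0.0444, 0.0411 and 0.0208). In the interaction 1 of 45 was called where 4.56% of all genes were, namely Ddit4, an inhibitor of mTORC1, at 1.50 (adjusted p = 0.0326). It lay at 1.92 to 4.02 TPM in WT UT and at 2.24, 2.485 and 0 TPM in WT LPS, against 0.876 to 1.87 TPM and 4.69 to 5.01 TPM in cGAS-/- cells.

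**Figure D5:**
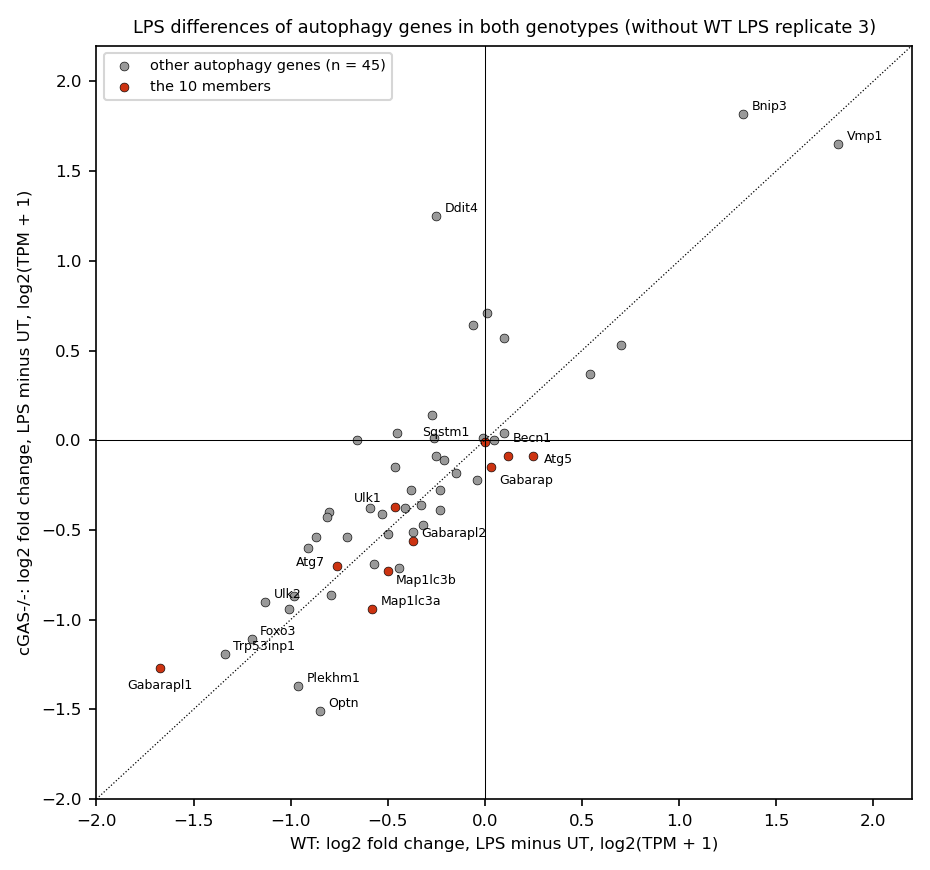
LPS difference in cGAS-/- against WT macrophages, as log2 fold change on log2(TPM + 1) without WT LPS replicate 3, for the 10 members (red) and 45 further autophagy genes (grey), with a dotted line of equal difference. Gabarapl1 lies at -1.67 and -1.27, Sqstm1, Becn1, Atg5 and Gabarap lie near 0, and Bnip3 and Vmp1 lie above 1 in both genotypes.

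The members did not share a single pattern over the 12 libraries. Pearson correlation of log2(TPM + 1) was 0.970 between Gabarapl1 and Gabarapl2 and 0.962 between Gabarapl1 and Atg7, and 0.916 and 0.937 without WT LPS replicate 3. Between Gabarapl1 and Gabarap it was 0.861 with that library and 0.339 without it, and between Gabarapl1 and Atg5 it was 0.723 and -0.199. With Sqstm1, Gabarapl1 gave 0.029 and 0.015. These libraries share their groups and their scale, so the values are a description.

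Among all genes tested, those most like Gabarapl1 over the 12 libraries were Atpif1 and Akr1b3 (both r = 0.995) and Cotl1 (r = 0.994), which kept 0.988, 0.985 and 0.979 over the 11 libraries without WT LPS replicate 3. The nearest to Atg7 was Hadhb (0.986), to Ulk1 Zfp282 (0.988), to Map1lc3b Plekho1 (0.988) and to Map1lc3a Enpp1 (0.970). For Gabarap the nearest was Lamtor1, at 0.992 over 12 libraries and 0.908 over 11. Sqstm1 was nearest to Gm36976 (0.951) and Becn1 to Gm6632 (0.751), the lowest of the 10.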

How the data were processed

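RNA from 12 libraries of bone marrow-derived macrophages, 3 per genotype and treatment, was measured by paired-end sequencing after a strand-specific kit. Per the submitters' processing notes and the methods, the authors used fastp, STAR and kallisto with GRCm39 and compared groups with edgeR and limma, while versions other than that of R and the annotation release are not given in the sources used here. The deposited values were taken as kallisto TPM that the authors averaged over the transcripts of a symbol. This unit was inferred from the digits of the values, and 0 columns were left unmapped. The number of reads is unknown. Counting error is therefore not given, and no tool for counts was run.

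Genes with at least 1 TPM, after rescaling for the filter only to a common total, in at least 3 of 12 libraries were kept (11887). Limma 3.58.1 in R 4.3.3 was fitted across all these genes to log2(TPM + 1), with a pseudocount of 1, a mean per group over 12 libraries and moderated variances that follow the mean. Fold changes on this scale understate those of low genes. A gene counted as called where its p, adjusted by Benjamini-Hochberg over all genes tested, was under 0.05, and the study's threshold adds a log2 fold change beyond 2. The script was tested on simulated data. The rule names every member in every comparison and of the wider list up to the 8 largest called genes per comparison. The members and lists were chosen with earlier results of these data known, and the wider list was written from general knowledge. Replicate numbers were checked for pairing: 0 of 18 same-numbered pairs of libraries had a correlation of deviations above 0.1, so they share only a number. Shared sequence was found with blastn 2.17.0 against GENCODE vM39 transcripts, and promoters are RefSeq sequences of GRCm38.p6. Alternatives were other pseudocounts, filters and scalings, protein-coding genes only, weights per sample, a replicate block, only the samples compared, and each library left out. Genes on chromosomes after 13 and markers such as Adgre1, Csf1r and Cd14 were not analysed here.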

Additional observations from a re-analysis of the deposited data

How the results depend on the processing

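The 10 log2 fold changes in each of 5 comparisons and the 5 counts of members called were recomputed under each alternative, except that the difference between genotypes in the LPS response needs all 4 groups and has no value with only the samples compared, and the cause of a change was not tested. The count called in WT LPS against UT, 5 as reported, was 3 with TMM factors, 2 with quantile normalization, 2 with weights per sample, 7 with protein-coding genes only, 3 with a replicate block, 0 with only the samples compared and 4 with a pseudocount of 0.1, with no filter and with a filter of 5 TPM (which left 9 members, without Ulk1), and ran from 1 to 6 when 1 library was left out. Beside 27.6% as reported, the share of all genes called was 19.6%, 20.6%, 19.4%, 53.4%, 24.9% and 6.02% under the first 6 of these and 23.6%, 11.3% and 32.7% under the last 3. In cGAS-/- cells, where 1 was reported, it was 2 with a pseudocount of 5, 2 with no filter, 0 with TMM factors, 2 with quantile normalization, 5 with protein-coding genes only, 6 with weights per sample and 7 with only the samples compared, and ran from 1 to 5 when 1 library was left out. Beside 13.8% as reported, the share of all genes called was 15.4%, 5.79%, 13.7%, 15.1%, 31.7%, 48.3% and 44.6% in the same order. Between genotypes, where 0 was reported, it was 2 in UT with only the samples compared, where 10.4% of all genes were called. With LPS it ran from 0 to 1 when 1 library was left out, while the share of all genes called ran from 0.648% to 27.9%. The replicate block changed no other count, and same-numbered libraries did not deviate together (0 of 18 pairs with a correlation above 0.1).

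Signs turned as follows. With TMM factors, LPS against UT in WT gave 0.45 for Atg5, 0.06 for Map1lc3a, 0.04 for Map1lc3b, 0.14 for Gabarap and 0.74 for Sqstm1, and in cGAS-/- cells 0.20 for Becn1, 0.21 for Atg5, 0.17 for Gabarap and 0.31 for Sqstm1. Between genotypes it gave 0.02 for Sqstm1 in UT and -0.11 for Atg5 and -0.14 for Gabarap with LPS, and -0.24 for Atg5 in the interaction. Quantile normalization gave 0.18 for Atg5 and 0.11 for Sqstm1 in WT, 0.06 for Becn1 and 0.02 for Sqstm1 in cGAS-/- cells, 0.06 for Sqstm1 and -0.02 for Atg5 between genotypes in UT and with LPS, and -0.19 for Atg5 in the interaction. Protein-coding genes only gave 0.03 for Sqstm1 between genotypes in UT and -0.08 for Atg5 in the interaction. Weights per sample gave, between genotypes with LPS, -0.03 for Atg5, -0.29 for Gabarap, -0.01 for Gabarapl2 and 0.07 for Sqstm1, with LPS 0.05 for Atg5 in WT and 0.01 for Sqstm1 in cGAS-/- cells, and in the interaction -0.14 for Atg5, -0.09 for Gabarap, -0.11 for Gabarapl2 and 0.10 for Sqstm1.

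With 1 library left out, ranges that crossed 0 were, between genotypes in UT, -0.09 to 0.09 for Map1lc3a and -0.08 to 0.05 for Sqstm1. Between genotypes with LPS they were -0.02 to 0.57 for Ulk1, -0.14 to 0.01 for Becn1, -0.23 to 0.66 for Atg5, -0.06 to 0.57 for Atg7, -0.34 to 0.00 for Map1lc3b, -0.39 to 0.62 for Gabarap, -0.11 to 0.86 for Gabarapl2 and -0.14 to 0.12 for Sqstm1. With LPS they were -0.64 to 0.25 for Atg5, -0.97 to 0.03 for Gabarap and -0.14 to 0.12 for Sqstm1 in WT, and -0.07 to 0.06 for Sqstm1 in cGAS-/- cells. In the interaction they were -0.34 to 0.55 for Atg5, -0.22 to 0.12 for Map1lc3b, -0.19 to 0.82 for Gabarap, -0.19 to 0.78 for Gabarapl2 and -0.12 to 0.13 for Sqstm1. Of these turned signs, Map1lc3a and Map1lc3b in WT had been called. Both turned with TMM factors, for which no fit without WT LPS replicate 3 was run. Summing TPM over transcripts was not run, because the digits do not give the number of transcripts averaged. Depth is unknown, so a difference that missed the threshold may have been too small to detect here.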
